A study of Mus musculus with 12 samples.

Results

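The 200 transcripts whose level rose most when wild-type (WT) mouse embryonic stem cells (ESC) became neural progenitor cells (NPC) were followed into cells that carry altered Chd8. Libraries came from KO NPC, HET NPC, WT NPC, KO ESC, HET ESC and WT ESC, 2 per group and 12 in all. KO stands for CHD8-/- cells and HET for CHD8+/- cells. The ESC were grown in 2i medium, and the NPC were derived from ESC by differentiation. The labels do not say how the alleles were made, how many lines carry each genotype or whether the libraries of a group were grown apart. The p-values below therefore reflect differences among these particular libraries, which may be technical only.

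The 200 were taken from 55419 transcripts per library. Of these, 41795 were 301 to 9999 bases long and lay outside 7 stretches of the row order that the choice left out, and 12885 of the 41795 were higher in both WT NPC libraries than in both WT ESC libraries. The 200 with the highest log2((mean TPM in WT NPC + 1)/(mean TPM in WT ESC + 1)) were kept. TPM is an abundance corrected for transcript length that sums to the same total in every library. The members were thus selected on the TPM of the 4 WT libraries. Those values are a description, and any comparison of a mutant with WT is drawn by the choice itself, towards higher values in mutant ESC and lower values in mutant NPC. Comparisons among the 8 KO and HET libraries did not enter the choice, and the tests below were made on those. The fit behind these tests took the spread of each transcript from all 12 libraries, WT included.

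Naive ESC in 2i medium are held in a pluripotent state by inhibitors of MEK and GSK3 signalling. On neural differentiation the pluripotency network is shut down, and cells switch on transcription factors, adhesion molecules, signalling receptors and cytoskeletal genes of the neural lineage. CHD8 is an ATP-dependent chromatin remodeller of the CHD family that binds near active promoters, and loss-of-function variants in the human gene are linked to autism. The files name transcripts by identifiers of the UCSC type and pair none with a gene. Of these identifiers, 0 were found in the gene name tables used here, so no gene names, roles or sequences are given, and neither Chd8 itself nor the markers of ESC and NPC could be checked against the labels.

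Total estimated counts per library ran from 9062447 to 14766212. ESC libraries were deepest in KO and shallowest in WT, at 14220515 and 14766212 in KO ESC and 12884157 and 13432274 in HET ESC, against 9062447 and 9840544 in WT ESC. The libraries also differed in composition. Among 17574 rows of eligible length and position with a mean TPM of at least 1, the median difference of NPC from ESC was 0.35 in KO, 0.34 in HET and 0.41 in WT on the log2(TPM + 1) scale, and after TMM scaling (trimmed mean of M-values) it was 0.00, -0.01 and 0.03. Changes on differentiation in deposited TPM are thus to be read against a shift of that size.

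The choice reached from very steep gains to moderate ones. uc008ptk.1 had the highest value, 7.05, with 1544 and 1528 TPM in WT NPC, against 10.9 and 10.3 TPM in WT ESC. uc009kod.2 came next at 6.53, with 48.1 and 134 TPM in WT NPC and estimated counts that rounded to 0 in both WT ESC libraries. The last transcripts inside the limit, uc007mzv.2 and uc007pik.1, had values of 3.05 and 3.05, and the next ones outside it, uc008asw.2 and uc008rae.1, had 3.04 and 3.04. Members were 322 to 9899 bases long with a median of 2918, where the median of the 17574 rows was 2589. In WT NPC their mean estimated counts ran from 10.2 to 14585 with a median of 618. None of the 200 was among the 50 most abundant transcripts, where abundance is the mean TPM over all libraries (0 of 50).

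Members were not all independent of each other. In the row order of the files, 47 of the 200 stood directly beside another member, in 20 runs of 2 to 4 rows, and 153 stood alone. Neighbouring rows can be forms of the same gene, between which the counting program divides reads, and the files do not say which are. All 200 passed the filter on low counts, which their level in WT NPC alone could bring about.

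**Figure D1:**
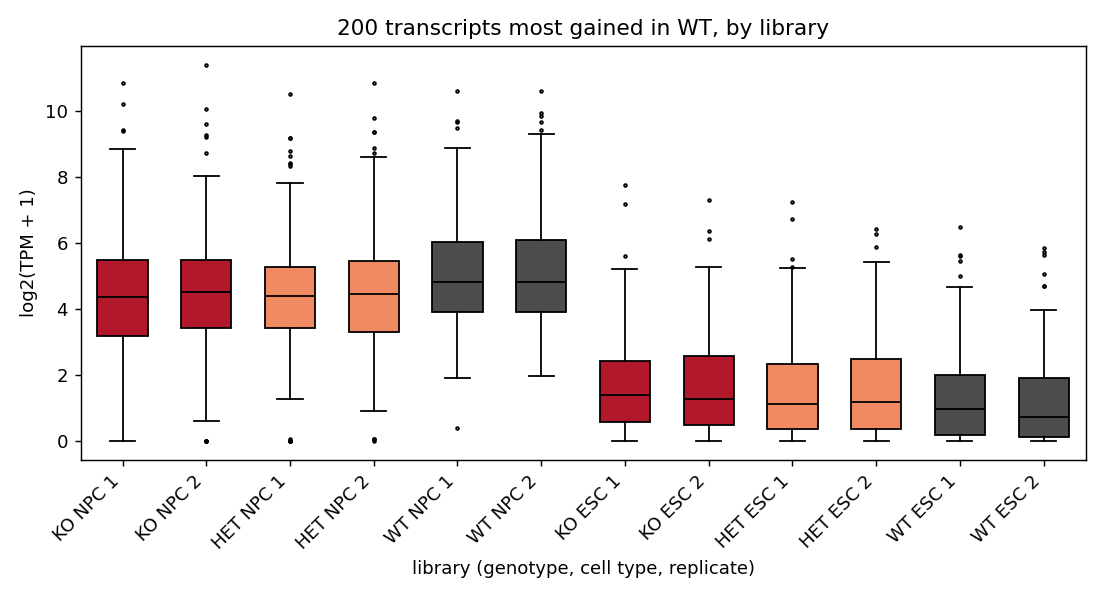
Level of the 200 transcripts in each of the 12 libraries as log2(TPM + 1). Boxes span the quartiles with the median as a line, whiskers reach to 1.5 times the box height, and points lie beyond. The NPC boxes of KO and HET sit well above all ESC boxes, and the medians of KO ESC and HET ESC sit above those of WT ESC.

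Most of these transcripts rose on differentiation in the mutants too. The median member had 19.3 and 21.6 TPM in the KO NPC libraries, against 1.60 and 1.42 TPM in KO ESC. In HET the medians were 20.1 and 20.8 TPM in NPC, against 1.17 and 1.23 TPM in ESC. The WT medians, which the choice drove apart, were 27.2 and 26.8 TPM in NPC, against 0.941 and 0.641 TPM in ESC, and 168 members were called in WT, as a description (6.83% of all features higher and 5.33% lower by the edgeR test described next). DESeq2 called 186 higher and 0 lower in WT (10.6% and 8.95% of its features), and by the choice all 200 were higher there without overlap, against 39.4% of eligible rows and 11.2% lower. The plot of levels by library shows that the NPC and ESC medians of a genotype lie far apart in every pair of libraries.

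In KO cells 138 of the 200 were called higher in NPC than in ESC and 0 lower (edgeR quasi-likelihood test, Benjamini-Hochberg adjusted p under 0.05 over 30021 features), where 6.59% of all features were called higher and 6.42% lower. In HET cells 145 were called higher and 0 lower by the same test, where 6.3% of all features were called higher and 5.16% lower. At an unadjusted p under 0.05, 170 were higher and 1 lower in KO (13% and 13.2% of all features), and 175 were higher and 0 lower in HET (13.1% and 12.1%). DESeq2 called 164 higher and 1 lower in KO (10.4% and 9.51% of its features), and 170 higher and 0 lower in HET (10.7% and 8.84%). Both KO NPC libraries lay above both KO ESC libraries for 190 members, against 37.4% of the eligible rows with any reads, and both HET NPC libraries lay above both HET ESC libraries for 188 members, against 37.6%. The median gain on the log2(TPM + 1) scale was 2.87 in KO and 2.98 in HET, where the rows of mean TPM at least 1 had 0.35 and 0.34. In all, 194 members had a gain above 0 in both mutants.

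The calls of the mutants were then compared member by member. Of the 138 called in KO, 130, or 94.2%, were also called in HET, and these were 89.7% of the 145 called in HET. A further 8 were called in KO alone, 15 in HET alone and 47 in neither. KO and HET share no library within this comparison, but the members had been chosen together in WT. Calls were more frequent among members with more reads. Of the 74 members with a mean estimated count of at least 1000 in WT NPC, 67 were called in KO and 68 in HET, and 3 in neither. Of the 33 with under 200 counts, 11 were called in KO, 12 in HET and 20 in neither. Shares of all features by count were not computed.

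The largest rises were from levels at or near 0. uc009pim.1 had 26.2 and 23.4 TPM in KO NPC and an estimated count of 0 in both KO ESC libraries, which is at least 306-fold higher when 3 counts per library stand for the count of 0 (edgeR adjusted p = 0.00264). uc009fbx.1 had 10.9 and 14.7 TPM in KO NPC and again a count of 0 in both KO ESC libraries, at least 209-fold higher (edgeR adjusted p = 0.0154). That call ended when any KO library was left out. In HET, uc008lqw.2 had 11.6 and 24.99 TPM in NPC and a count that rounded to 0 in both ESC libraries, at least 186-fold higher (edgeR adjusted p = 0.00126). uc007she.1 had 28.6 and 34.2 TPM in HET NPC and a count of 0 in both HET ESC libraries, also at least 186-fold higher (edgeR adjusted p = 0.00096). These transcripts were present in the NPC of the other genotypes as well, with uc007she.1 at 42.8 and 39.7 TPM in KO NPC, against 24.7 and 23.3 TPM in WT NPC. The folds are those of single rows. uc009fbw.1, a member of similar identifier and length to uc009fbx.1 (6624 against 6687 bases), had 27.5 and 28.0 TPM in KO ESC and 259 and 253 TPM in KO NPC. uc008lqx.2, the neighbouring row of uc008lqw.2, had 0.712 and 0 TPM in HET ESC and 36.6 and 34.8 TPM in HET NPC. Whether reads were divided between such rows was not tested.

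**Figure D2:**
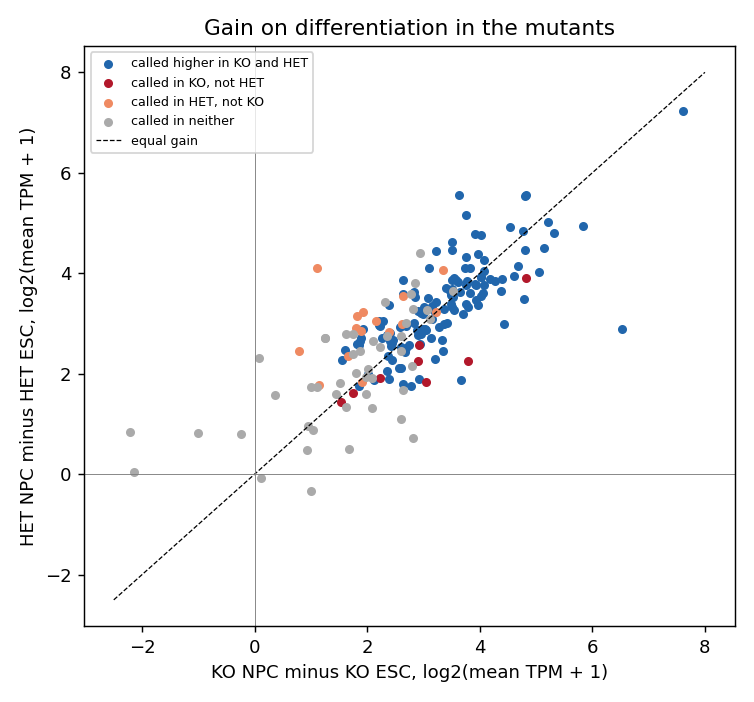
Gain of each of the 200 transcripts on differentiation in KO cells (horizontal) and HET cells (vertical), as the difference of log2(mean TPM + 1) between NPC and ESC. Colours give the edgeR calls (130 in both, 8 in KO alone, 15 in HET alone, 47 in neither). The dashed line marks equal gain, and 194 points lie above 0 on both axes.

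Whether the mutants reached the full gain cannot be told from the share of the WT gain alone, because the members were picked for a high gain in these WT libraries. As a description, the gain in KO was 76.3% of that in WT for the median member, with quartiles of 55.3% and 92.4%, and the gain in HET was 79.7%, with quartiles of 60.7% and 94.0%. In KO 33 members reached or passed the WT gain and 32 kept under 50% of it, and in HET 34 reached or passed it and 20 kept under 50%. Both mutants kept under 50% for 13 members. The share was lower where the WT NPC libraries themselves were unlike. For the 29 members whose WT NPC libraries differed by over 2-fold it had a median of 54.0% in KO and 62.1% in HET, and 8 and 11 of them were called. For the other 171 it was 79.3% in KO and 81.1% in HET, and 130 and 134 were called. This split rests on WT NPC values that made the choice and enter the share, so the lower share is not a result. Shares of all features called were not computed for the split.

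Against WT NPC, 110 members were lower without overlap and 27 higher in KO NPC, and 118 were lower and 15 higher in HET NPC, where 28.8%, 14%, 23.4% and 12.4% of eligible rows were. By edgeR, 1 member was called higher and 0 lower in KO NPC (0.0766% and 0.137% of all features), with 12 higher and 34 lower at an unadjusted p under 0.05 (5.85% and 6.8%). In HET NPC 0 were called in either direction (0.00999% higher and 0% lower of all features), with 4 higher and 40 lower at an unadjusted p under 0.05 (4.03% and 3.87%). DESeq2 called 9 higher and 19 lower in KO NPC (3.21% and 3.38% of its features), and 2 higher and 16 lower in HET NPC (1.15% and 1.15%). These counts carry the pull of the choice and nothing is read from them.

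**Figure D3:**
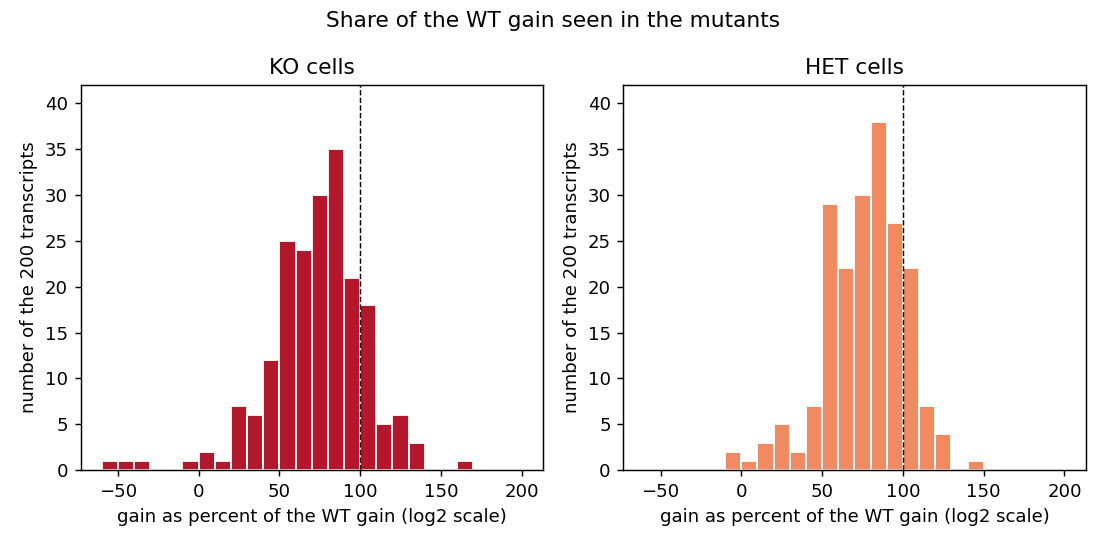
Gain in KO cells (left) and HET cells (right) as a percent of the gain in WT cells, both on the log2(mean TPM + 1) scale, for the 200 transcripts. The dashed line marks the WT gain, which 33 members reached or passed in KO and 34 in HET. The WT gain chose the members, so the place of the histograms below 100% is not a result.

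The difference between KO and HET NPC uses no WT level, although the main fit took the spread of each transcript from all 12 libraries. Whether the choice pulled KO and HET unequally was not tested. By edgeR, 0 members differed between KO NPC and HET NPC at an adjusted p under 0.05, where 0% of all features were called higher and 0.00666% lower. A fit of the KO and HET libraries only called 0 members as well. At an unadjusted p under 0.05, 14 members were higher and 3 lower, against 3.01% and 4.37% of all features, and DESeq2 called 5 higher and 1 lower (0.58% and 0.887% of its features). Without overlap, 56 members were higher in KO NPC than in HET NPC and 41 lower, where 14.3% and 19.4% of eligible rows were. The median difference was 0.09 on the log2(TPM + 1) scale, with quartiles of -0.24 and 0.36, where the background rows had a median of -0.04. After TMM scaling the medians were 0.16 and 0.04. Without KO NPC replicate 2 the median was 0.02.

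The gain itself was also set against that of the other mutant, as the interaction of genotype with cell type. By edgeR 0 members were called (0% of all features in each direction), with 10 larger and 12 smaller gains in KO at an unadjusted p under 0.05, against 2.42% and 3.1% of all features. DESeq2 called 2 larger and 4 smaller (0.268% and 0.36% of its features). The median difference of gain, KO minus HET, was -0.09 with quartiles of -0.67 and 0.32, and it was 0.0001 without KO ESC replicate 1. With 2 libraries a group, a p that misses the threshold does not show that the gains were alike.

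Single members departed from the common pattern in NPC. In 23 members the levels in NPC were ordered without overlap, KO below HET below WT, where 4.11% of eligible rows with any reads in NPC were. In 9 they were ordered the other way, KO above HET above WT, where 1.23% of those rows were. The choice drew mutant NPC towards values below WT NPC, which favours the first order and runs against the second. Neither order was tested.

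uc012fxo.1 had the lowest p among members lower in KO NPC than in HET NPC. It had 12.4 and 17.6 TPM in KO NPC, 90.6 and 63.9 TPM in HET NPC and 201 and 324 TPM in WT NPC. In ESC it had 2.63 and 1.39 TPM in KO and 6.74 and 13.5 TPM in HET, against 11.5 and 4.87 TPM in WT. The 3 genotypes did not overlap in NPC, and KO ESC lay below HET ESC. The fit placed KO NPC against HET NPC at a log2 difference of -2.28 with an SE of 0.547, and this did not pass over all features (edgeR adjusted p = 0.356).

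uc009kod.2 is the neighbouring row of uc012fxo.1 and stands in the same run of 3 members, with uc012fxp.1, so that it is not separate evidence of the order. It had 5.45 and 7.54 TPM in KO NPC, 19.1 and 30.2 TPM in HET NPC and 48.1 and 134 TPM in WT NPC. It reached 35.5% of the WT gain in KO and 52.4% in HET, and its WT NPC libraries were themselves 2.79-fold apart. Summed over the 3 rows of the run, the level was 21.2 and 27.4 TPM in KO NPC and 126 and 111 TPM in HET NPC, against 291 and 534 TPM in WT NPC. In ESC the sums were 3.67 and 2.86 TPM in KO and 7.99 and 15.1 TPM in HET, against 12.6 and 10.4 TPM in WT. KO lay below HET without overlap in both cell types in the sums as well.

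The opposite order was seen in uc009ifz.1, which had the lowest p among members higher in KO NPC than in HET NPC. It had 44.1 and 57.2 TPM in KO NPC, 25.7 and 26.1 TPM in HET NPC and 22.7 and 22.3 TPM in WT NPC, while all ESC libraries lay at or below 0.629 TPM. The fitted log2 difference of KO NPC from HET NPC was 1.06 with an SE of 0.214, which did not pass either (edgeR adjusted p = 0.253).

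Among members with a mean of at least 20 TPM in WT NPC, uc008sje.2 had the highest share of the WT gain when the shares of KO and HET were averaged, 128%, from 138% in KO and 118% in HET. It had 40.8 and 41.8 TPM in KO NPC and 30.6 and 37.2 TPM in HET NPC, against 37.4 and 26.9 TPM in WT NPC. Its NPC libraries overlapped between HET and WT, while in ESC it had 1.26 and 0.200 TPM in KO and 0.867 and 1.65 TPM in HET, all below the 2.34 and 2.21 TPM in WT.

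By the same average and within the same limit, the lowest share was that of uc009qfq.2, at -23.6%, from -48.3% in KO and 1.11% in HET. It had 0.00386 and 0.000687 TPM in KO NPC and 0.0332 and 0.0360 TPM in HET NPC, against 64.9 and 7.31 TPM in WT NPC. The WT NPC libraries were thus far apart from each other, and all 4 mutant NPC libraries lay under 1 estimated count. Its neighbours in the row order, uc009qfr.2 and uc009qfs.1, are members as well, and uc009qfr.2 has the same length, 1210 bases. Summed over the 3 rows the level was 151 and 220 TPM in KO NPC and 170 and 131 TPM in HET NPC, against 205 and 229 TPM in WT NPC. The sums of KO and HET overlapped, and the sums of all NPC libraries exceeded those of all ESC libraries, which were at most 19.4 TPM. The near absence of uc009qfq.2 in mutant NPC was not seen in the 3 rows together.

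The ESC were compared next, to see whether the same transcripts stood higher before differentiation. In bulk RNA, a small share of cells that have begun to differentiate and a low level in every cell cannot be told apart. Summed over the 200, the level was 1246 and 1048 TPM in KO ESC and 979 and 932 TPM in HET ESC, against 707 and 633 TPM in WT ESC. The 3 genotypes did not overlap, and the low place of WT ESC is drawn by the choice. uc008ikb.2 alone gave 214 and 156 TPM of the KO ESC sums, and without it the sums were 1032 and 892 TPM in KO ESC and 874 and 848 TPM in HET ESC, against 659 and 582 TPM in WT ESC. The order stayed the same, with KO ESC replicate 2 close to HET ESC replicate 1. In NPC the sums were 12141 and 13687 TPM in KO and 10496 and 12121 TPM in HET, against 14733 and 16293 TPM in WT, so the ESC held a small part of the NPC level in every genotype.

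Because the mutant ESC libraries were the deeper ones, detection was also compared at equal depth. A count that rounds to 0 was found for 22 and 25 members in KO ESC and 32 and 33 in HET ESC, against 41 and 42 in WT ESC. After every library had been thinned at random to the same total, the numbers were 24 and 27 in KO ESC and 32 and 35 in HET ESC, against 41 and 43 in WT ESC. The summed counts at that depth were 17572 and 15915 in KO ESC and 13694 and 12827 in HET ESC, against 11397 and 9606 in WT ESC. The order of KO above HET was thus the same at equal depth. Thinning does not remove the pull of the choice on WT ESC. The thinning was chosen after the data had been seen.

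KO ESC against HET ESC is the part of this order that the choice did not use. By edgeR 0 members were called, where 0.00333% of all features were called higher and 0% lower. At an unadjusted p under 0.05, 38 members were higher in KO ESC and 9 lower, against 4.81% and 4.49% of all features, and DESeq2 called 10 higher and 7 lower (1.4% and 1.47% of its features). Both KO ESC libraries lay above both HET ESC libraries for 58 members and below both for 29, where 14.4% and 19.1% of eligible rows did. The median difference on the log2(TPM + 1) scale was 0.14, with quartiles of -0.18 and 0.46, where the background rows had -0.05, and 126 members lay above 0 and 69 below. After TMM scaling the median was 0.20, against 0.02 for the background rows.

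In deposited TPM the size of that median rested on KO ESC replicate 1. Without it the median was 0.01 in deposited TPM, and without KO ESC replicate 2 it was 0.11. The TMM factor of the TPM was 0.894 in KO ESC replicate 1 and 0.73 in replicate 2. The median with a library left out was not computed after that scaling. In the edgeR fits, where libraries are scaled for composition, 40 members were higher and 11 lower at an unadjusted p under 0.05 without KO ESC replicate 1, and 24 and 10 without KO ESC replicate 2. Of the 118 with a mean of at least 1 TPM in KO and HET ESC, 35 were higher and 16 lower without overlap, and of the other 82, 23 were higher and 13 lower. Shares over all rows were not computed for these levels or with a library left out, so these counts are a description only. No single member passed the edgeR test, and the median is given as a description of the list.

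**Figure D4:**
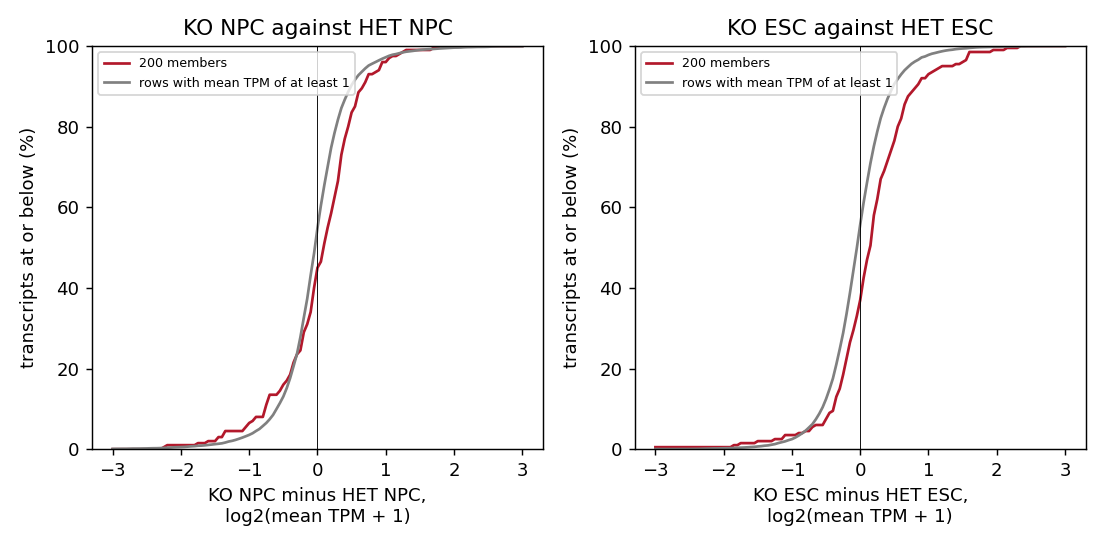
Cumulative share of transcripts by the difference of log2(mean TPM + 1) between KO and HET, in NPC (left) and ESC (right), for the 200 members and for the 17574 rows with a mean TPM of at least 1. The curve of the members lies to the right of the background around 0, with medians of 0.09 against -0.04 in NPC and 0.14 against -0.05 in ESC. The curves cross further left. At or below -1 lie 6.5% of members against 3.5% of background rows in NPC, and 3.5% against 2.5% in ESC. At or below 1 lie 96.0% against 97.2% in NPC and 93.0% against 97.8% in ESC.

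Measured on the way from WT ESC (0%) to WT NPC (100%), on the log2(TPM + 1) scale, the median member stood at 8.49% and 3.28% in the KO ESC libraries and at 2.02% and 1.60% in the HET ESC libraries. After TMM scaling these were 9.58% and 8.53% in KO ESC and 2.57% and 1.97% in HET ESC. Members past 10% of the way numbered 96 and 76 in KO ESC and 63 and 63 in HET ESC, against 16 and 13 in WT ESC. Members past 50% numbered 10 and 9 in KO ESC and 8 and 8 in HET ESC. In NPC the median stood at 82.8% and 87.9% in KO and at 83.7% and 84.7% in HET. The distance of KO and HET from 0% in ESC and from 100% in NPC includes the pull of the choice. The choice used no KO or HET library, but it may pull the 2 genotypes unequally, which was not tested. In ESC, edgeR called 0.716% of all features higher and 0.49% lower in KO against WT, and 0.02% and 0.0133% in HET against WT.

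Against WT ESC, 80 members were higher without overlap and 21 lower in KO ESC, and 57 were higher and 24 lower in HET ESC, where 14.3%, 20.3%, 14.2% and 17% of eligible rows were. By edgeR 13 members were called higher and 0 lower in KO ESC (0.716% and 0.49% of all features), with 51 higher and 5 lower at an unadjusted p under 0.05 (7.87% and 6.42%). In HET ESC 1 was called higher and 0 lower (0.02% and 0.0133% of all features), with 32 higher and 7 lower at an unadjusted p under 0.05 (4.85% and 3.82%). DESeq2 called 35 higher and 3 lower in KO ESC (4.2% and 3.27% of its features) and 16 higher and 3 lower in HET ESC (1.41% and 1.01%). Nothing is read from these counts either, since WT ESC had been chosen to be low. Of the 13 called in KO ESC, 9 also lay above both HET ESC libraries, which the pick for high KO ESC values favours. Of the same 13, 10 were called to rise further from KO ESC to KO NPC. Shares over all features called in KO ESC were not computed, and nothing is read from these numbers. The levels were ordered KO above HET above WT without overlap in ESC for 12 members and the other way for 0, where 1.3% and 2.42% of eligible rows with any reads in ESC were, and here too the choice of low WT ESC values enters.

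The next 2 members were picked for their calls against WT, after their values had been seen, and are given as a description. uc009tkb.1, the only member called in HET ESC, had 24.2 and 27.3 TPM in KO ESC and 22.2 and 20.8 TPM in HET ESC, against 0.396 and 0.642 TPM in WT ESC. On differentiation it reached 190 and 167 TPM in KO NPC and 103 and 161 TPM in HET NPC, against 114 and 112 TPM in WT NPC. Its gain was 44.1% of the WT gain in KO and 41.2% in HET, although its level in KO NPC lay above that in WT NPC without overlap.

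uc008ikb.2 was the only member called in KO NPC against WT NPC, and the most abundant member in KO ESC. It had 1168 and 1046 TPM in KO NPC and 576 and 876 TPM in HET NPC, against 470 and 510 TPM in WT NPC (edgeR adjusted p = 0.042 for KO against WT). In ESC it had 214 and 156 TPM in KO and 105 and 83.3 TPM in HET, against 47.8 and 51.7 TPM in WT. It was the only member ordered KO above HET above WT without overlap in both cell types.

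uc008yak.1 had the lowest p of any member in KO ESC against HET ESC. It had 0.619 and 0.333 TPM in KO ESC, from 44.8 and 26.5 estimated counts, and counts that rounded to 0 in both HET ESC libraries. That is at least 11.3-fold higher in KO ESC with 3 counts per library in place of 0, and it did not pass over all features (edgeR adjusted p = 0.0972). In NPC it had 7.63 and 6.03 TPM in KO and 4.47 and 6.21 TPM in HET, against 7.31 and 9.16 TPM in WT, so KO NPC overlapped both other genotypes, and HET NPC lay below WT NPC.

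uc009qfr.2 had the lowest p in the other direction. It had 8.19e-05 and 0.0871 TPM in KO ESC and 6.93 and 11.02 TPM in HET ESC, against 4.07 and 3.93 TPM in WT ESC (edgeR adjusted p = 0.113 for KO against HET). Its neighbour of the same length, uc009qfq.2, had 3.46 and 3.37 TPM in KO ESC and under 0.001 TPM in both HET ESC libraries. The 3 neighbouring rows summed to 11.95 and 10.8 TPM in KO ESC and 16.2 and 19.4 TPM in HET ESC, against 12.7 and 13.8 TPM in WT ESC. KO ESC also lay below HET ESC in the sum, by a smaller ratio than in the single row. These were also the transcripts with the lowest p for a difference in gain: uc009qfr.2 gained more in KO than in HET (edgeR adjusted p = 0.349) and uc008yak.1 less (edgeR adjusted p = 0.27).

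**Figure D5:**
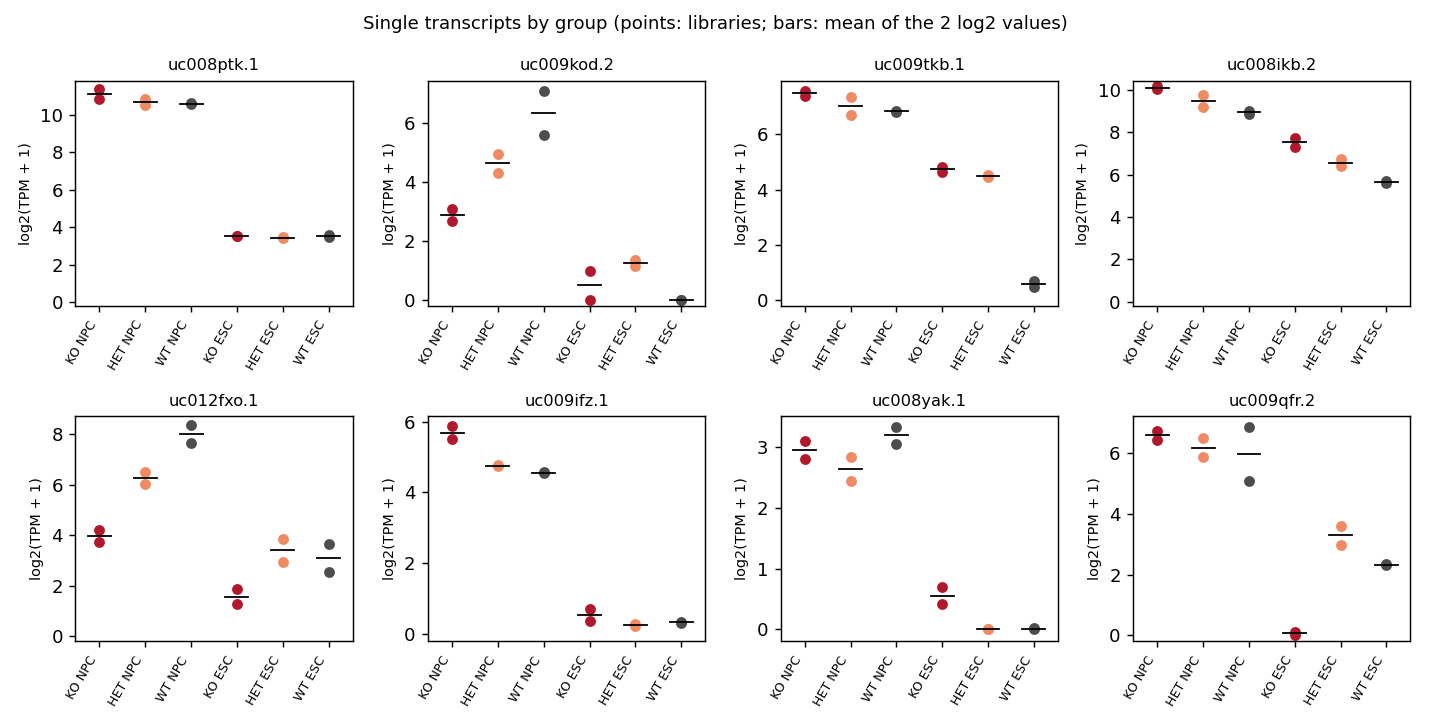
Levels of 8 members as log2(TPM + 1) by group, with a point for each library and a bar at the mean of the 2 log2 values. uc008ptk.1 is at a similar low level in all ESC groups, uc009tkb.1 and uc008ikb.2, picked for their calls against WT, stand above WT in mutant ESC, the neighbouring rows uc009kod.2 and uc012fxo.1 are ordered KO below HET below WT in NPC, and uc009ifz.1 is ordered the other way.

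uc008ptk.1, which had the highest value of the choice, differed little in ESC. It had 10.6 and 10.4 TPM in KO ESC and 10.2 and 9.56 TPM in HET ESC, against 10.9 and 10.3 TPM in WT ESC. KO ESC lay above HET ESC without overlap by a small margin (edgeR adjusted p = 0.906), and no mutant ESC library exceeded the higher WT ESC library. In NPC it had 1814 and 2677 TPM in KO and 1438 and 1835 TPM in HET, against 1544 and 1528 TPM in WT, and HET overlapped both.

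Runs of neighbouring members did not always move together. Of the 20 runs, 10 had the same calls for all their rows in both KO and HET, and in 8 runs the difference between KO NPC and HET NPC had opposite signs in different rows.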

How the data were processed

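The libraries were stranded and made from total RNA depleted of ribosomal RNA, per the labels' protocols. The submitters' processing notes name kallisto (version not given in the sources used here), cutadapt 1.16 and the build mm9. The deposited files hold, per the file headers, an estimated count (an expected count, in which a read is shared among compatible transcripts), its TPM, and both the full and the effective length of each transcript. The deposited TPM values were used as given, and no scaling between libraries is recorded in the file headers.

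Members and lists were chosen with earlier results of these data known. Rows with equal estimated counts in every library (2 decimals, total of at least 10) were merged, 252 rows into 99 features, among them 2 members. After rounding, filterByExpr with a minimum count of 10 and TMM scaling, edgeR 4.0.16 in R 4.3.3 (robust glmQLFit) fitted the 12 libraries together, each group having its own mean. Two-sided p-values of all 30021 features were adjusted by Benjamini-Hochberg. The procedure was also run on simulated data in which most features had the same mean in all groups, unlike ESC and NPC here. No result is taken from that run. DESeq2 1.42.0, limma 3.58.1 on log2(TPM + 1), other filters and scalings, the KO and HET libraries alone, each library left out and a replicate block were alternatives. Most transcripts were named by rule: the highest values of the choice, those at its limit, the largest called rises and falls with at least 5 TPM and no overlap (where none was called, the lowest p in each direction), and the extreme shares of the WT gain. Chosen after their values were seen were uc009tkb.1, uc008ikb.2, uc008agm.2 and the fall of uc009qfq.2 in KO. Outside the rule, uc009fbw.1, uc008lqx.2, uc012fxp.1 and uc009qfs.1 were given beside a named transcript of similar identifier or neighbouring row. The SE is the size of a fitted log2 change over the root of its F statistic. Counting floors cover counting error only.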

Additional observations from a re-analysis of the deposited data

Results flagged for a closer look

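uc009qfq.2 was flagged because its 2 mutant genotypes moved in opposite directions, with a difference of gain, KO minus HET, of -2.188 on the log2(TPM + 1) scale. It was not alone, since the gain was below 0 for 4 members in KO and 2 in HET, and 194 were above 0 in both. The lowest difference, -3.07, was that of uc008agm.2. That transcript had 0.000108 and 0 TPM in KO NPC against 3.89e-06 and 7.31 TPM in KO ESC. In HET it had 0 and 4.06 TPM in NPC against 1.37 and 0 TPM in ESC, so its libraries overlapped in both mutants. uc009qfq.2 was lower in both KO NPC than in both KO ESC libraries, at 0.00386 and 0.000687 TPM in KO NPC against 3.46 and 3.37 TPM in KO ESC. In HET it was nominally higher in NPC, but at under 1 estimated count in every HET library. The difference of gain did not pass (edgeR adjusted p = 1 for the interaction), nor did KO NPC against KO ESC (edgeR adjusted p = 0.0567), which DESeq2 called lower. No group holds enough libraries for a single library to be marked as standing apart.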

How the results depend on the processing

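The calls in HET NPC against HET ESC (145) numbered 122 to 170 under other tools, scalings and filters and 107 to 157 with a library left out, and those in KO NPC against KO ESC (138) numbered 112 to 168 and 107 to 144. Where edgeR called 0 members, DESeq2 called 17 for KO against HET in ESC, 6 in NPC and 6 for the difference in gain. With a library left out edgeR called 0 to 1, 0 and 0 to 1, a lone library being assumed to vary like the other groups.

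Median gains depended on the scale. In HET the 2.98 became 3.88 and 1.85 with pseudocounts of 0.1 and 5, 2.64 after TMM scaling, 3.23 for the 164 members of mean TPM at least 5, and 2.99 to 3.07 with a library left out. In KO the 2.87 became 3.66, 1.80 and 2.55, and 2.70 to 3.02 with a library left out. KO against HET in ESC was 0.27 and 0.042 with these pseudocounts and 0.0114 to 0.17 with a library left out, and in NPC 0.02 to 0.15. With a library left out fewer values must stay apart, and members without overlap for KO against HET numbered 81 to 97 higher and 41 to 59 lower in ESC, and 77 to 94 and 54 to 68 in NPC. Shares of eligible rows under that looser rule were not computed. The difference in gain became -0.23 and turned to 0.0064 with these pseudocounts, and ranged from -0.15 to 0.0001 with a library left out. The pseudocount sets the weight of low levels, and the cause of the other changes was not tested.

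The choice itself shared 92 of the 200 members with a pseudocount of 0.1, 138 with 5, 135 with TMM-scaled counts per library total and 148 to 170 with a WT library left out. Deviations of same-numbered libraries correlated at -0.05 to 0.06, between genotypes of a cell type and between NPC and ESC of a genotype, so the numbers were not taken to pair samples, and with a replicate block 122 members were called in HET, 112 in KO and 0 in the other 3 comparisons. Of the 33 members under 200 counts in WT NPC, 20 were called in neither mutant, and the part of depth in this was not tested.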
